A study of Mus musculus with 4 samples.

Results

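The enzymes of cholesterol synthesis encoded by Hmgcs1, Idi1, Fdps, Fdft1, Sqle, Lss, and Cyp51 were followed across the blood-forming cell classes of mouse bone marrow (BM) and spleen. These 7 genes were listed by name as members of the mevalonate and sterol pathway and make up 7 of the 32285 genes counted in each library. Single-cell RNA-sequencing counted messenger RNA molecules by unique molecular identifiers (UMIs) in droplets, with 1 library for each of 4 groups: control BM (CBM), BM of tumor-bearing mice (TBM), control spleen (CS), and spleen of tumor-bearing mice (TS). All groups were C57BL/6J mice of 8 to 16 weeks, female according to the methods, and the tumor was PyMT-B6, a line derived from mammary tumors of mice that express the polyomavirus middle T oncogene from a mammary promoter. The sources used here do not say how many mice were behind each library. Digested tissue was depleted of lineage-positive cells, sorted into CD45+ c-Kit+ cells with and without Sca-1 and into CD45- cells gated on CD31 and CD51, and the sorted fractions were mixed in equal parts, so the share of a cell class is set partly by the sort and shares are not compared.

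Barcodes with at least 1000 genes and at most 10% mitochondrial UMIs were taken as cells, which gave 3497 CBM cells, 4340 TBM cells, 3236 CS cells, and 5188 TS cells, with median UMIs per cell of 13738, 14386, 26322.5, and 26808. Library pairs shared between 2 and 9 cell barcodes. Cells were placed in classes by clustering without the 7 genes and by markers, and a class is called "-like" after its markers. Levels are given as CPM, the UMIs of a gene for every 1000000 UMIs of a class in a library, for 34 pairs of a class and a library with at least 50 cells. With 1 library per group no difference could be tested, and every 95% interval covers counting error only, not the spread between mice. A lower level in a class can come from fewer cells expressing the gene or from less RNA per cell, and these cannot be told apart in summed counts.

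Cholesterol is built from acetyl-CoA through mevalonate and isoprenoid intermediates to farnesyl diphosphate, at which the sterol branch starts with squalene and runs through lanosterol. The genes of this route are controlled together by the transcription factor SREBP2, the product of Srebf2, which is released from the endoplasmic reticulum when sterols are low, binds sterol regulatory elements, and acts with the factor NF-Y, while the INSIG proteins hold it back when sterols are high. Cells also take up cholesterol in lipoproteins through receptors at the cell surface. All 7 members are enzymes of synthesis, so uptake genes are described only with the other genes of the pathway.

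The members lie at separate loci of the mouse genome (build GRCm38, GENCODE annotation), and all are protein-coding. Hmgcs1 (ENSMUSG00000093930), at chr13:119690379-119708260 on the plus strand, encodes HMG-CoA synthase, which feeds mevalonate synthesis. Idi1 (ENSMUSG00000058258), at chr13:8885501-8892451 on the plus strand, encodes the isomerase that interconverts the isoprenoid building blocks. Fdps (ENSMUSG00000059743), at chr3:89093588-89101959 on the minus strand, encodes farnesyl diphosphate synthase. Fdft1 (ENSMUSG00000021273), at chr14:63145150-63179578 on the minus strand, encodes squalene synthase, and Sqle (ENSMUSG00000022351), at chr15:59315077-59331192 on the plus strand, encodes squalene epoxidase. Lss (ENSMUSG00000033105), at chr10:76531588-76557138 on the plus strand, encodes lanosterol synthase, and Cyp51 (ENSMUSG00000001467), at chr5:4081145-4104746 on the minus strand, encodes lanosterol demethylase. Fdft1 overlaps Ctsb, Cyp51 overlaps Akap9, Hmgcs1 overlaps Gm48342, and Lss overlaps 4930483K19Rik, each on the other strand; according to the methods, Cell Ranger was run with default settings, which count reads on the strand of the gene.

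Because the members share a regulator, the DNA just before their start sites is shown for 3 of them. RefSeq promoter windows were matched for 4 of the 7 members, and each was searched over the 250 bases before the RefSeq start, on both strands, for the sterol regulatory element TCACNCCAC, the NF-Y box CCAAT, and the GC box GGGCGG. The lines below run 5′ to 3′ on the strand of the gene, with matches to any of the 3 motifs in capitals, and they end where the GENCODE gene begins if that comes before the RefSeq start: chr13:119690101-119690350 (plus strand) for Hmgcs1, chr10:76531355-76531587 (plus strand) for Lss, and chr5:4104747-4104947 (minus strand) for Cyp51, build GRCm38.p6.
Hmgcs1: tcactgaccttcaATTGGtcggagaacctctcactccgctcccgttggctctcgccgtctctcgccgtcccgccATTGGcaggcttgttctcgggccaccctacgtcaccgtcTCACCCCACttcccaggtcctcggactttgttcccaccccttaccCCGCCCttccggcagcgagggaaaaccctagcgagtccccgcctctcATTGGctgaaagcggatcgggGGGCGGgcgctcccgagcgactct
Lss: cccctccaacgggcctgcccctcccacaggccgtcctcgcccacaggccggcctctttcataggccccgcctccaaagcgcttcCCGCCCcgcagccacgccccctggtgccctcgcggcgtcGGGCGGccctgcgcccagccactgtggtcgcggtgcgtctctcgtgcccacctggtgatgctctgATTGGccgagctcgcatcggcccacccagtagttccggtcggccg
Cyp51: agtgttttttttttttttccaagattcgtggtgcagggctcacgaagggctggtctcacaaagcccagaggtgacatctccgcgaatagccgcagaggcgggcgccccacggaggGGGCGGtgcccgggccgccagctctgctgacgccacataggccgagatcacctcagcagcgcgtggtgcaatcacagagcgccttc
The Hmgcs1 window held 1 match to the sterol regulatory element, 137 to 129 bases before the start, together with 3 NF-Y boxes and 2 GC boxes. The 250 bases before Lss held 1 NF-Y box and 2 GC boxes, those before Cyp51 held 1 of each, the NF-Y box lying past the end of the printed line, and those before Idi1 held 2 NF-Y boxes and 1 GC box, all past the GENCODE start and therefore not printed. No further match to TCACNCCAC was found in these 3 windows. Of 32851 promoter windows of the same length, 1.05% held the sterol regulatory element, 33.8% an NF-Y box, and 32.7% a GC box. The letters describe these windows only.

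Each enzyme had its own order of cell classes. Hmgcs1 was highest in the dendritic-like cells of CS, at 53.1 CPM, and lowest in hemoglobin-rich erythroid-like cells, at 5.54 to 8.93 CPM over the 4 libraries, below the 15.002 to 23.6 CPM of free RNA in barcodes with at most 100 UMIs. The dendritic level rests on CS alone: the other libraries held 8 to 28 dendritic-like cells, too few for a level by gene. Their sums over the 7 genes were 670 CPM in CBM, 494 in TBM, and 93.1 in TS, against 284 in CS. Cyp51 was also highest there, at 53.9 CPM, and was at 6.64 to 12.1 CPM in hemoglobin-rich erythroid-like cells, although the B lineage-like cells of TBM were lower still, at 5.22 CPM on 4 UMIs. Between these ends, the other classes gave Hmgcs1 levels of 14.7 to 43.1 CPM, and the ranges of most neighbours in the order overlapped. Early erythroid-like cells, which express Klf1, Car1, and Gata1 but little hemoglobin, had only 14.7 CPM of Hmgcs1 in CS and 16.6 in TS.

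Idi1 was high in early erythroid-like cells, in which Hmgcs1 was low. It reached 51.0 CPM in CS and 43.5 CPM in TS in early erythroid-like cells and 38.0 to 54.4 CPM in megakaryocyte-like cells. In hemoglobin-rich erythroid-like cells Idi1 was at 26.3 CPM in CBM and 35.3 in TBM, both below HSPC-like cells of the same library, and at 39.5 in CS and 57.6 in TS, with wide intervals. Neutrophil precursor-like cells of TBM, at 15.7 CPM, and the B lineage-like cells of TBM, at 14.3 CPM, were at the low end. The ranges of the 11 highest classes overlapped from one class to the next, so Idi1 drew no firm order among them.

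Fdps, whose product supplies isoprenoids for protein prenylation as well as sterols, was highest in the myeloid classes. Monocyte-like cells had 134 CPM in CBM and 113 in TBM, and 107 in CS and 111 in TS, and granulocyte-monocyte progenitor (GMP)-like cells had 93.0, 116, 89.2, and 97.6 CPM in the same order. Dendritic-like cells of CS, at 103 CPM, lay between the levels of these classes in CS. Cells like hematopoietic stem and progenitor cells (HSPCs) stood far lower, at 42.6 to 50.3 CPM. Free RNA carried 111 CPM of Fdps in CBM and 123 in TBM, but 79.7 in CS and 53.0 in TS, so the BM levels of the myeloid classes stood close to that of free RNA, and every other class shown in BM, at 24.7 to 88.1 CPM, stood below it.

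In the sterol branch, each enzyme peaked in another class. Fdft1 was highest in hemoglobin-rich erythroid-like cells, with 23.3 CPM in CBM and 22.8 in TBM, and 21.5 in CS and 23.2 in TS, above free RNA at 6.94 to 11.6 CPM. These levels did not overlap those of the next class, B lineage-like cells, at 11.7 and 20.3 CPM, but the intervals did. That of B lineage-like cells of CBM ran from 13.9 to 28.7 CPM, and that of hemoglobin-rich erythroid-like cells of CS from 14.6 to 30.5. Sqle was highest in megakaryocyte-like cells, at 25.4 to 31.6 CPM over the 4 libraries. By the mean over libraries it was lowest in basophil or mast-like cells, at 3.87 CPM in CBM and 7.34 in TBM, on 2 and 19 UMIs. In TBM, B lineage-like cells were lower still, at 6.52 CPM on 5 UMIs. Lss, by contrast, was highest in basophil or mast-like cells, with 17.4 CPM in CBM and 13.9 in TBM, on 9 and 36 UMIs. In monocyte-like cells Lss was at 1.28 to 3.32 CPM. Both levels in basophil or mast-like cells rest on the marrow, as CS and TS held 47 and 32 such cells, too few for a level by gene. Their sums over the 7 genes were 392 CPM (340 to 450) in CS and 125 (85.2 to 178) in TS, against 141 in CBM and 121 in TBM. Cluster 21, led by Prss34 and Mcpt8, held 42 CBM, 269 TBM, 3 CS, and 23 TS cells. Cluster 31, led by Gzmb and Cma1, held 19, 7, 44, and 9. In hemoglobin-rich erythroid-like cells of TS, Lss had 0 UMIs.

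**Figure D1:**
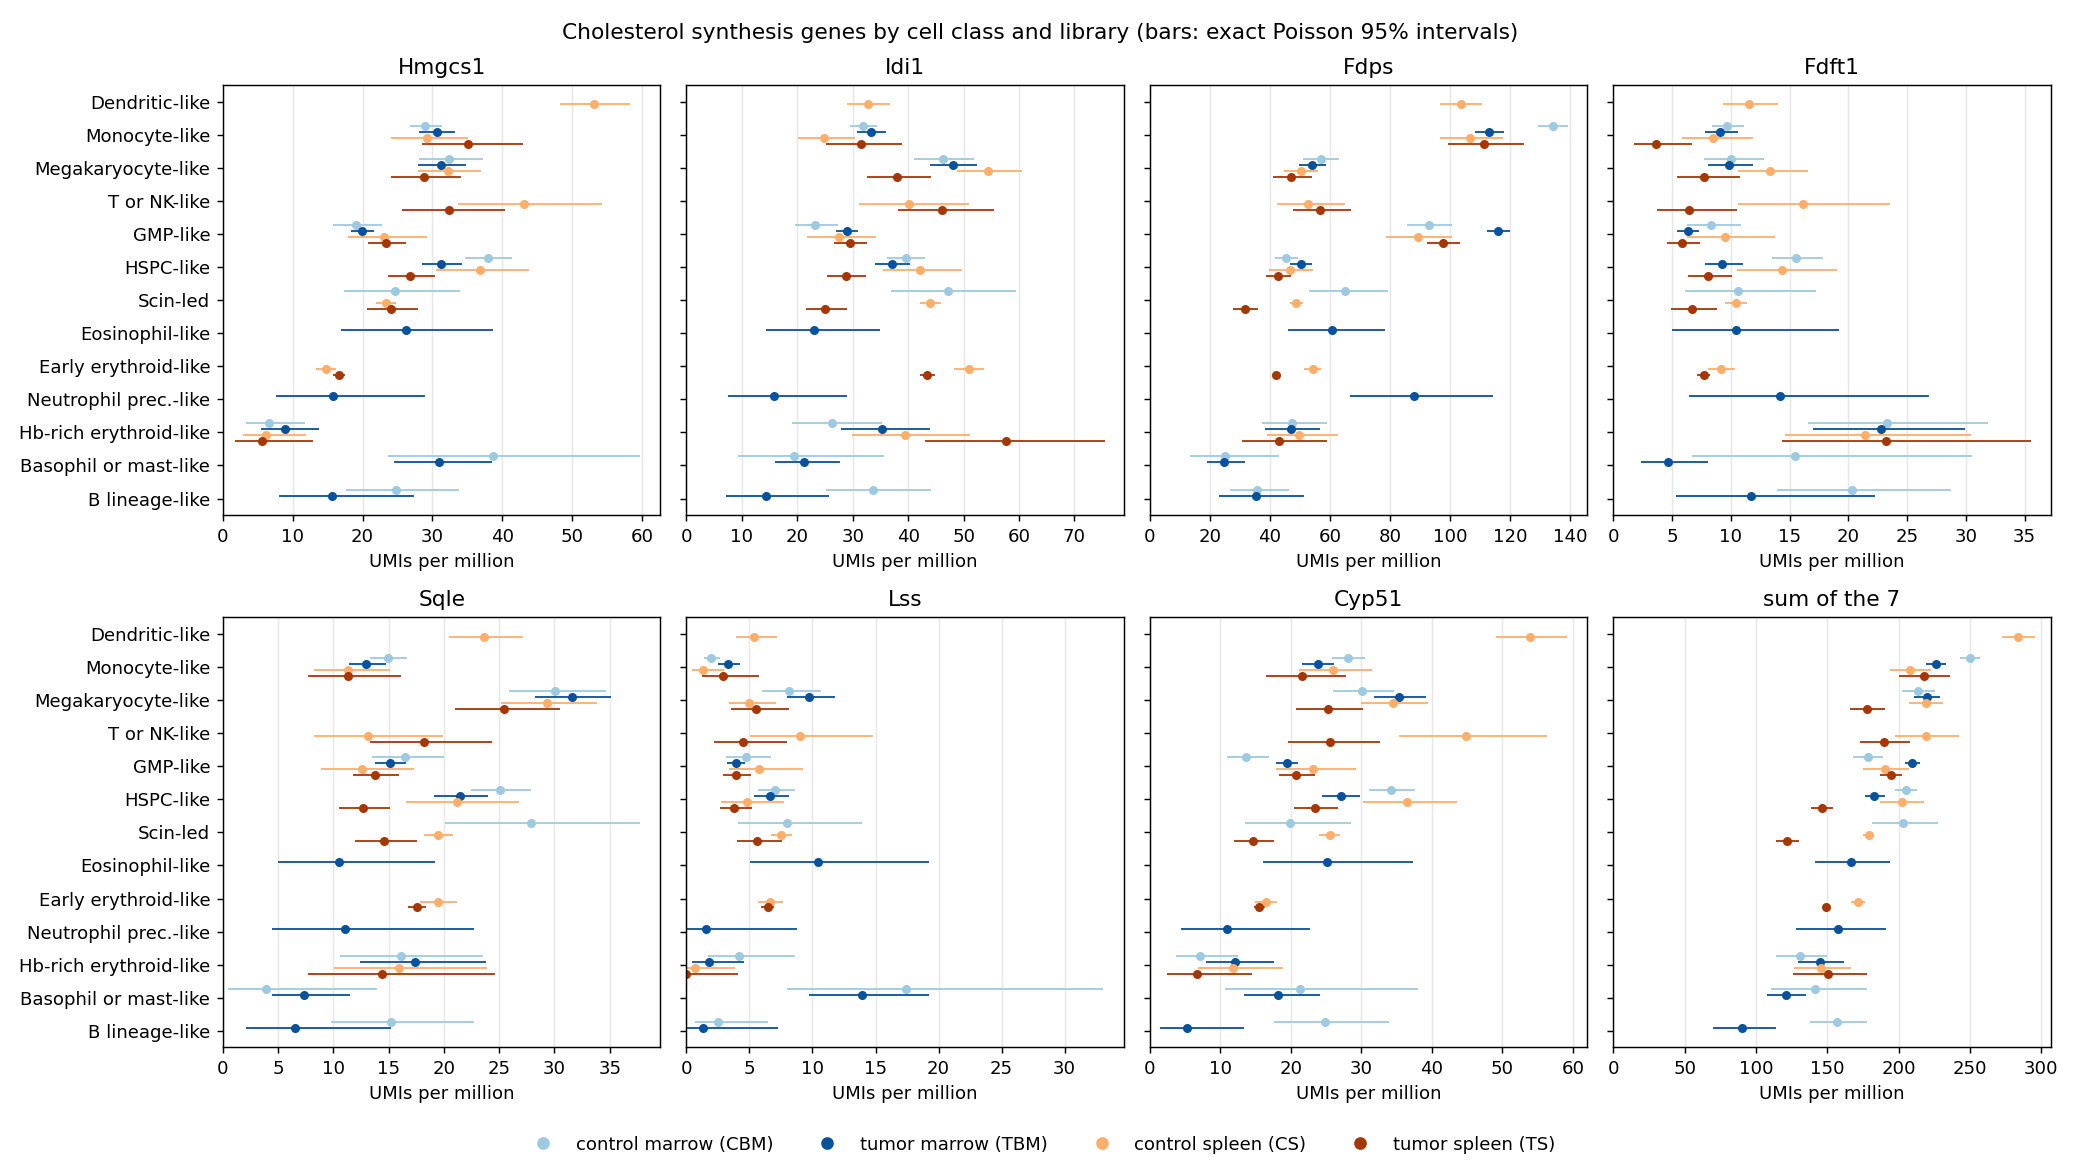
Level of each gene in CPM (UMIs scaled as in the text; horizontal axis, from 0, a separate scale in each panel) in each cell class (vertical axis) and library (colors); points are levels, bars are exact Poisson 95% intervals, and the last panel gives the sum of the 7 genes. Hmgcs1 and Cyp51 peak in dendritic-like cells, drawn for CS alone, Fdps in monocyte-like cells, Fdft1 in hemoglobin-rich erythroid-like cells, Sqle in megakaryocyte-like cells, and Lss in basophil or mast-like cells, drawn for CBM and TBM alone.

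Across the 34 pairs of class and library, the members did not share a single order of classes. As a description over pairs that share libraries and depth, Pearson correlations were taken on log2(CPM + 10). The correlation was 0.87 for Hmgcs1 with Cyp51 and 0.76 for Idi1 with Sqle, and it was -0.46 for Hmgcs1 with Fdft1. The other 18 pairs of members lay between -0.38 and 0.52. The genes outside the list were compared, on the same log scale, by their correlation with the mean of the standardized members, among 6236 genes. Among genes of the pathway list the correlations went both ways. Stard4, a cholesterol transport gene, was at 0.64 and Srebf2 at 0.62, whereas Ebp was at 0.10, Pmvk at 0.04, Lbr at -0.46, and Scd1 at -0.48. The 10 closest genes included Mink1, Dnm1l, Kdm2b, Dynll2, Aebp2, Ccnd1, Nr4a2, Rtl8a, and Isoc1, with correlations of 0.67 to 0.75.

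In HSPC-like cells, the tumor-bearing spleen had the lowest level of all 7 enzymes. This class held 819 CBM, 926 TBM, 152 CS, and 643 TS cells, and was made of 4 clusters in which 6 to 8 of the 9 HSPC markers, among them Kit, Cd34, and Hlf, reached 50 CPM. Summed over the 7 genes, the level was 205 CPM in CBM (197 to 213) and 183 in TBM (176 to 190), and 202 in CS (187 to 218) and 146 in TS (139 to 154). The interval of TS lay below those of the other 3 libraries. Free RNA was higher in TS than in CS for 5 of the 7 members and lower for Fdps and Lss. Idi1 was at 35.8 CPM in the free RNA of TS against 29.2 in that of CS, and Hmgcs1 at 15.249 against 15.002, on 55 and 76 UMIs. In TS, HSPC-like cells had less Idi1, Fdps, and Fdft1 than free RNA, at 28.7, 42.6, and 8.08 CPM against 35.8, 53.0, and 8.87. Sqle and Lss stood close to it, at 12.7 and 3.78 against 11.4 and 3.60. In CS, Idi1, Fdft1, and Sqle stood above free RNA, at 42.1, 14.3, and 21.2 against 29.2, 8.69, and 10.9, and Fdps below it. Hmgcs1 and Cyp51 stood above it in both spleens, and the part of free RNA was not tested.

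Gene by gene, the mevalonate and isoprenoid steps came first. Hmgcs1 was at 38.0 CPM in CBM (95% interval 34.7 to 41.4) and 31.3 in TBM (28.5 to 34.3), and 36.7 in CS (30.5 to 43.8) and 26.9 in TS (23.7 to 30.3). Idi1 was at 39.6 CPM in CBM (36.2 to 43.1) and 37.1 in TBM (34.0 to 40.4), and 42.1 in CS (35.4 to 49.7) and 28.7 in TS (25.4 to 32.4). For both genes the TS interval lay wholly below that of CS, and for Idi1 also below those of CBM and TBM. Fdps stood apart, with 45.4 CPM in CBM (41.9 to 49.2) and 50.3 in TBM (46.7 to 54.1), and 46.6 in CS (39.6 to 54.5) and 42.6 in TS (38.5 to 46.9), and the intervals of both spleen libraries overlapped.

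Differences were larger for most enzymes of the sterol branch. Fdft1 was at 15.6 CPM in CBM (13.5 to 17.9) and 9.29 in TBM (7.79 to 11.0), and 14.3 in CS (10.6 to 19.0) and 8.08 in TS (6.37 to 10.1), so both tumor libraries were below both control libraries, although the intervals of TBM and CS overlapped. Sqle, whose product oxidizes squalene, was at 25.1 CPM in CBM (22.4 to 27.9) and 21.4 in TBM (19.1 to 24.0), and 21.2 in CS (16.6 to 26.7) and 12.7 in TS (10.5 to 15.2). Here TS alone was low, and the other 3 libraries overlapped. Cyp51 was at 34.2 CPM in CBM (31.1 to 37.5) and 27.0 in TBM (24.4 to 29.9), and 36.4 in CS (30.3 to 43.5) and 23.4 in TS (20.4 to 26.7). As for Fdft1, TBM and TS were below both controls. Lss, with 16 to 96 UMIs per library, was at 7.03 CPM in CBM (5.66 to 8.62) and 6.66 in TBM (5.39 to 8.13), and 4.78 in CS (2.73 to 7.76) and 3.78 in TS (2.64 to 5.23), and its spleen libraries overlapped.

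**Figure D2:**
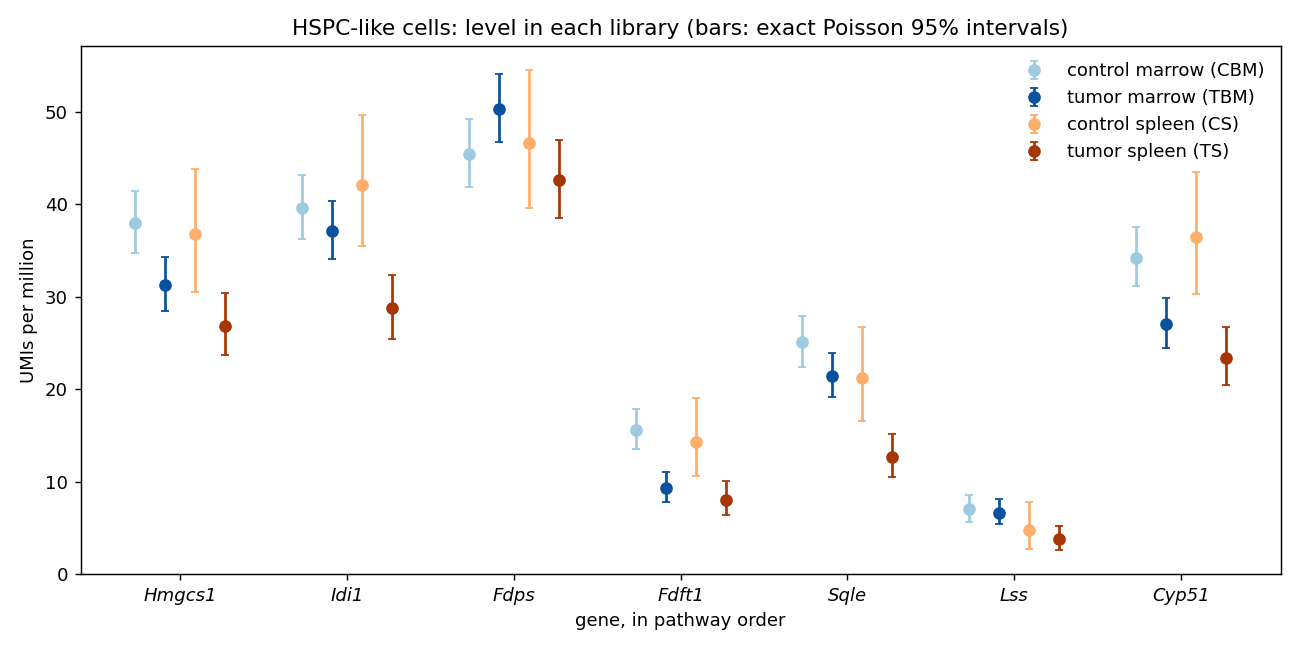
Level in HSPC-like cells in CPM (vertical axis, from 0) for the 7 genes in pathway order (horizontal axis) in the 4 libraries (colors), with exact Poisson 95% intervals as bars. TS is the lowest point for every gene, with intervals apart from CS for Hmgcs1, Idi1, Fdft1, Sqle, and Cyp51 but not for Fdps and Lss.

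The comparison of TS with CS asked how HSPCs of the spleen differ when a tumor is present. The log2 ratio of TS over CS was below 0 for 7 of 7 members, with a median of -0.55 (the value of Idi1, 95% interval -0.85 to -0.25). Fdft1 had the lowest ratio, -0.83 (-1.37 to -0.28), followed by Sqle at -0.74 (-1.18 to -0.30), Cyp51 at -0.64 (-0.96 to -0.31), and Hmgcs1 at -0.45 (-0.77 to -0.13). The intervals of Lss, at -0.34 (-1.23 to 0.61), and Fdps, at -0.13 (-0.40 to 0.15), included 0. None of the 7 reached a 2-fold difference, the size used for a call among genes with at least 50 UMIs over both libraries; of the 10204 such genes, 1% were at least 2-fold higher and 1.48% at least 2-fold lower. Over these genes the median was -0.02, the quartiles were -0.24 and 0.19, and 53.1% lay below 0, so 6 of the 7 members lay below the lower quartile and Fdps between the quartiles.

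The other 3 comparisons of HSPC-like cells share libraries with this one. For TBM over CBM, 6 of 7 members were below 0, with a median of -0.23 (Sqle, -0.45 to 0.00); the intervals of Fdft1 at -0.75 (-1.07 to -0.42), Cyp51 at -0.34 (-0.54 to -0.14), and Hmgcs1 at -0.28 (-0.47 to -0.09) lay below 0, and Fdps was at 0.15 (-0.01 to 0.30). 0 of 7 members reached 2-fold, against 1.45% of 11458 genes higher and 1.38% lower. Over these genes 51.3% lay below 0 and the lower quartile was -0.19. For CS over CBM the median was -0.05 (Hmgcs1, -0.34 to 0.24), all 7 intervals included 0, and 0 members reached 2-fold, against 1.17% of genes higher and 1.47% lower. For TS over TBM, 7 of 7 were below 0, with a median of -0.24 (Fdps, -0.42 to -0.06), the lowest being Lss at -0.82 (-1.41 to -0.25) and Sqle at -0.76 (-1.07 to -0.45). Again 0 members reached 2-fold, against 0.985% of genes higher and 2.18% lower. Of all genes counted for TS over TBM, 52.2% lay below 0 and the lower quartile was -0.22.

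The difference between TS and CS was unevenly spread over the 4 HSPC-like clusters, which the libraries filled differently. Cluster 1, led by Hlf and Nkx2-3, held 518 of the CBM cells, 479 of the TBM cells, 60 of the CS cells, and 37 of the TS cells. Cluster 23, led by Dusp2 and Cxcl2, held 0, 2, 22, and 231 cells, with a median UMI count 0.373 times that of its own libraries. Clusters 6, led by Wfdc17 and Adgrl4, and 12, led by Adgrl4 and Cd34, held 45 and 25 of the CS cells and 187 and 188 of the TS cells. Summed over the 7 genes, cluster 1 had 263 CPM in CS and 161 in TS, a log2 ratio of -0.71 (-1.20 to -0.25), and cluster 23 had 237 and 128 CPM, a log2 ratio of -0.89 (-1.23 to -0.53). In cluster 6 the levels were 179 and 166 CPM, a ratio of -0.11 (-0.34 to 0.13), and in cluster 12 they were 152 and 141 CPM, a ratio of -0.11 (-0.39 to 0.18). The intervals of clusters 6 and 12 included 0, and the median of the 7 members was -0.15 and -0.17 there.

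These clusters also differed in the cell cycle. The 40 S and G2/M genes of a fixed list summed to 1421 to 1768 CPM over the libraries in cluster 1, to 1674 CPM in CS and 1716 in TS in cluster 23, to 3532 to 4418 CPM in cluster 6, and to 6836 to 8328 CPM in cluster 12. Among HSPC-like cells with a cell cycle share below the median of the class, the median log2 ratio of TS over CS was -0.98, the value of Lss, which has the fewest UMIs, and the members ran from -1.49 for Sqle to -0.57 for Fdps. Over the whole class, S genes were at 2141 CPM in CS and 2579 in TS, and G2/M genes at 2102 and 2470 CPM. The median UMI count of HSPC-like cells was 19486 in CS and 13354 in TS, and the part of depth or of the cell cycle in the difference was not tested. In the marrow, the summed level was 223 CPM in CBM and 178 in TBM in cluster 1, 220 and 195 in cluster 6, and 155 and 174 in cluster 12. The log2 ratio of TBM over CBM was -0.33 (-0.45 to -0.21) in cluster 1, -0.17 (-0.31 to -0.03) in cluster 6, and 0.17 (-0.00 to 0.33) in cluster 12. Between the control organs clusters 1 and 6 went opposite ways, with summed ratios of CS over CBM of 0.24 (0.04 to 0.44) in cluster 1, -0.30 (-0.53 to -0.07) in cluster 6, and -0.03 (-0.32 to 0.25) in cluster 12.

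**Figure D3:**
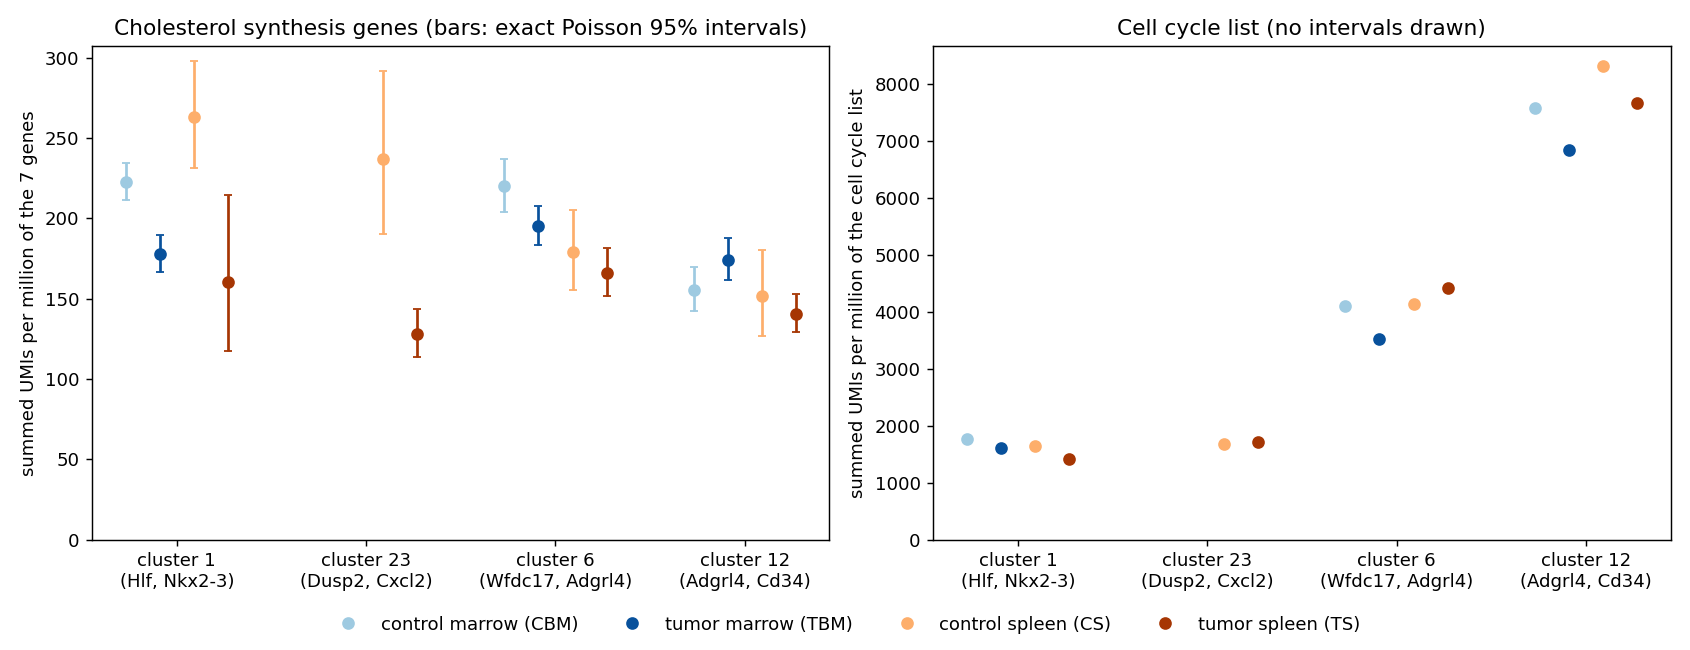
Summed level of the 7 genes (left) and of the cell cycle list (right) in CPM (vertical axes, from 0) in the 4 HSPC-like clusters, ordered by cell cycle level, for libraries (colors) with at least 20 cells in the cluster; bars on the left are exact Poisson 95% intervals. CS and TS lie apart in clusters 1 and 23 and overlap in clusters 6 and 12.

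The shares of HSPC-like cells with a UMI were compared after each cell was thinned to 2000 UMIs. At least 1 UMI of any member was found in 33.0% of cells in CBM (29.8 to 36.3%), 30.4% in TBM (27.4 to 33.5%), 33.6% in CS (26.1 to 41.7%), and 23.2% in TS (19.96 to 26.6%). The exact binomial intervals of CS and TS overlapped slightly. Unthinned, the shares were 83.3%, 81.6%, 86.2%, and 75.7%. For Sqle the thinned share was 7.89% in CS (4.15 to 13.4%) and 2.33% in TS (1.31 to 3.82%), and for Cyp51 it was 6.58% (3.20 to 11.8%) and 3.73% (2.41 to 5.50%). Hmgcs1, whose CPM was lower in TS, had like thinned shares of 6.58% in CS (3.20 to 11.8%) and 6.53% in TS (4.75 to 8.73%). For every member except Sqle, the intervals of CS and TS overlapped.

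Outside HSPC-like cells, among classes with at least 50 cells in both spleens, the nearest median ratio was in 3 clusters called Scin-led here. They have Scin among their first 3 leading genes. They hold markers of early erythroid cells but none among their leading genes, so they stay without a cell type name. This group was set apart after its values were seen. Idi1 was at 44.0 CPM in CS and 25.05 in TS, a log2 ratio of -0.81 (-1.04 to -0.59), and Cyp51 was at 25.5 and 14.6 CPM, a ratio of -0.81 (-1.11 to -0.52). Fdps, Fdft1, and Sqle also had intervals below 0, at -0.63, -0.64, and -0.42, while Hmgcs1 was at 23.4 CPM in CS and 24.1 in TS over the group. Within clusters Hmgcs1 was at 42.4 CPM in CS and 27.8 in TS in cluster 3, 20.5 and 16.5 in cluster 11, and 20.5 and 32.6 in cluster 10. The median of the 7 was -0.63 (Fdps, -0.83 to -0.43), against 0.03 over all genes counted. By gene the group differed from HSPC-like cells, in which Hmgcs1 was at -0.45 and Fdps at -0.13. Fdps stood below free RNA in both spleens, at 48.8 CPM in CS and 31.6 in TS against 79.7 and 53.0. The part of free RNA was not tested. The 2 libraries filled the clusters differently: cluster 3 held 374 CS and 415 TS cells, with a summed ratio of -0.90 (-1.05 to -0.75), cluster 11 held 408 and 129, with -0.44 (-0.62 to -0.27), and cluster 10 held 501 and 32, with -0.16 (-0.47 to 0.14). Median UMIs per cell in the group were 32137 in CS and 10344 in TS, and the part of depth was not tested. In classes with fewer than 50 cells in a spleen library, the summed level was also lower in TS than in CS. Dendritic-like cells had 93.1 CPM on 28 TS cells against 284 on 325 CS cells. Basophil or mast-like cells had 125 on 32 against 392 on 47, but the libraries filled this class differently. Cluster 21 held 23 TS and 3 CS cells, and cluster 31 held 9 and 44. B lineage-like and eosinophil-like cells went the same way, on 28 cells or fewer per library, with overlapping intervals. B lineage-like cells had 105 CPM (54.4 to 184) in TS on 12 UMIs and 314 (136 to 619) in CS on 8 UMIs. Eosinophil-like cells had 151 CPM (111 to 199) in TS and 199 (167 to 235) in CS.

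Over all megakaryocyte-like cells, TS was again lowest, with a summed level of 178 CPM (166 to 191) against 214 in CBM, 220 in TBM, and 219 in CS (208 to 231). TS over CS was below 0 for 6 of 7 members, with intervals below 0 for Fdft1 at -0.79, Idi1 at -0.52, and Cyp51 at -0.45, and a median of -0.20 (Sqle, -0.55 to 0.14). Of the 9658 genes counted here, 53.4% lay below 0 and the lower quartile was -0.19, so the median of the members lay about at that quartile. In cluster 2, with 151 CS and 223 TS cells, the summed level was 261 CPM in CS and 181 in TS, a log2 ratio of -0.53 (-0.69 to -0.37). In cluster 15, with 75 and 87 cells, it was 173 CPM in CS and 182 in TS, a ratio of 0.07 (-0.14 to 0.28), so TS was not the lowest there. Median UMIs per megakaryocyte-like cell were 22462 in CS and 11871 in TS, and the part of depth was not tested. Over the whole class, TS over TBM was below 0 for 7 of 7, with a median of -0.34 (Idi1, -0.60 to -0.09), against 56.3% of all genes counted. TBM over CBM lay near 0, at a median of 0.06 (Idi1, -0.15 to 0.27).

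Early erythroid-like cells, the class with the most UMIs, showed small differences with narrow intervals. TS over CS had a median of -0.15 (Sqle, -0.29 to -0.01). Median UMIs per cell were 72324 in CS and 35035 in TS, and the libraries filled the clusters differently, cluster 4 holding 18 of 388 CS cells and 782 of 2767 TS cells; the part of depth was not tested. The direction was not the same in each cluster: the median was 0.35 in cluster 4 and 0.01 in cluster 17, against -0.23 in cluster 0 and -0.07 in cluster 9. Fdps was at 54.2 CPM in CS and 41.9 in TS, a log2 ratio of -0.37 (-0.46 to -0.28). Both levels stood below free RNA, at 79.7 CPM in CS and 53.0 in TS, and the part of free RNA was not tested. Idi1 was at 51.0 and 43.5 CPM, a ratio of -0.23 (-0.32 to -0.14), whereas Hmgcs1 was at 14.7 and 16.6 CPM, a ratio of 0.17 (0.02 to 0.34). T or NK-like cells, with 100 cells in CS and 133 in TS, had no common direction. The median was -0.41 over all 7 members but 0.11 over the 5 with at least 50 UMIs, since Fdft1, with 27 and 16 UMIs, and Lss, with 15 and 11, fell short of that number. Cyp51 was at 44.9 CPM in CS and 25.5 in TS, a ratio of -0.81 (-1.32 to -0.31). The other 4 had intervals that included 0, with Hmgcs1 at -0.41, Fdps at 0.11, Idi1 at 0.20, and Sqle at 0.47.

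By their medians, the granulocyte and monocyte classes did not share this pattern in the spleen. Of the 7 members, 4 lay above 0 in GMP-like cells and 5 in monocyte-like cells. Fdft1 was lower in TS than in CS in both, with a log2 ratio of -0.70 (-1.34 to -0.02) in GMP-like cells. In monocyte-like cells its ratio was -1.21 (-2.40 to -0.15), on 10 UMIs in TS and 33 in CS. In GMP-like cells TS over CS had a median of 0.02 (Hmgcs1, -0.37 to 0.42), which ran from -0.24 to 0.04 over 12 alternative settings and kept its sign in 5 of them. In cluster 5, with 45 CS and 146 TS cells, 6 of 7 members were below 0, with a median of -0.20, and the summed ratio was -0.09 (-0.28 to 0.09). In monocyte-like cells the median was 0.06 (Fdps, -0.16 to 0.28), with 23 CS and 0 TS cells in cluster 14. It was 0.24 in cluster 16, with 38 CS and 20 TS cells, and 0.33 in cluster 19, with 38 and 49. In the marrow, GMP-like cells of TBM had more of the summed members than those of CBM, 210 CPM (204 to 215) against 179 (168 to 189), a log2 ratio of 0.23 (0.14 to 0.32). That difference came mainly from Fdps, at 93.0 CPM in CBM and 116 in TBM (0.32, 0.19 to 0.45), Idi1, at 23.3 and 28.9 CPM (0.31, 0.06 to 0.58), and Cyp51, at 13.7 and 19.4 CPM (0.50, 0.18 to 0.85), and the median of the 7 was 0.07 (Hmgcs1, -0.21 to 0.36). The marrow libraries filled the GMP-like clusters differently. The summed ratio was 0.25 (0.14 to 0.37) in cluster 5, with 180 CBM and 413 TBM cells, and 0.31 (0.13 to 0.49) in cluster 8, with 51 and 362. In cluster 18, with 43 and 373 cells of low depth, it was -0.11 (-0.51 to 0.30), and Fdps was at 131 CPM in CBM and 98.0 in TBM. Over all monocyte-like cells, Fdps was at 134 CPM in CBM and 113 in TBM (-0.25, -0.33 to -0.17), with a median of -0.09 over the 7. The marrow libraries filled the monocyte-like clusters differently: cluster 14 held 390 CBM and 28 TBM cells, and cluster 25 held 0 and 225. Within clusters, Fdps was at 166 CPM in CBM and 185 in TBM in cluster 14, 111 and 111 in cluster 16, and 126 and 111 in cluster 19, so the lower level of TBM was not seen in each cluster. The summed log2 ratio of TBM over CBM was 0.28 (0.06 to 0.50), 0.13 (0.01 to 0.25), and -0.03 (-0.13 to 0.08) in these 3 clusters.

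Over all classes and comparisons, 2 values of a member with at least 50 UMIs reached 2-fold. Idi1 in B lineage-like cells was at 33.7 CPM in CBM and 14.3 in TBM, a log2 ratio of -1.23 (-2.32 to -0.28) that rested on 53 and 11 UMIs, in a comparison in which 4.69% of 5947 genes were at least 2-fold lower. The libraries filled the class differently, with 76 CBM and 143 TBM cells in cluster 24 and 172 and 27 in cluster 26, and in the cells of low cell cycle share this ratio turned to 0.52. Fdft1 in monocyte-like cells was at 9.10 CPM in TBM and 3.66 in TS, a ratio of -1.31 (-2.40 to -0.40) that rested on 167 and 10 UMIs, where 6.11% of 10035 genes were at least 2-fold lower. Cluster 25 held 225 of these TBM cells and 3 of the TS cells and had Fdft1 at 13.3 CPM in TBM, against 6.13 in cluster 16 and 6.17 in cluster 19 of that library. Cluster 14, with 28 TBM and 0 TS cells, had 19.8 CPM in TBM. In TS, Fdft1 was at 1.51 CPM in cluster 16, 3.52 in cluster 19, and 24.0 in the 3 cells of cluster 25. Both comparisons thus held many genes with such differences.

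**Figure D4:**
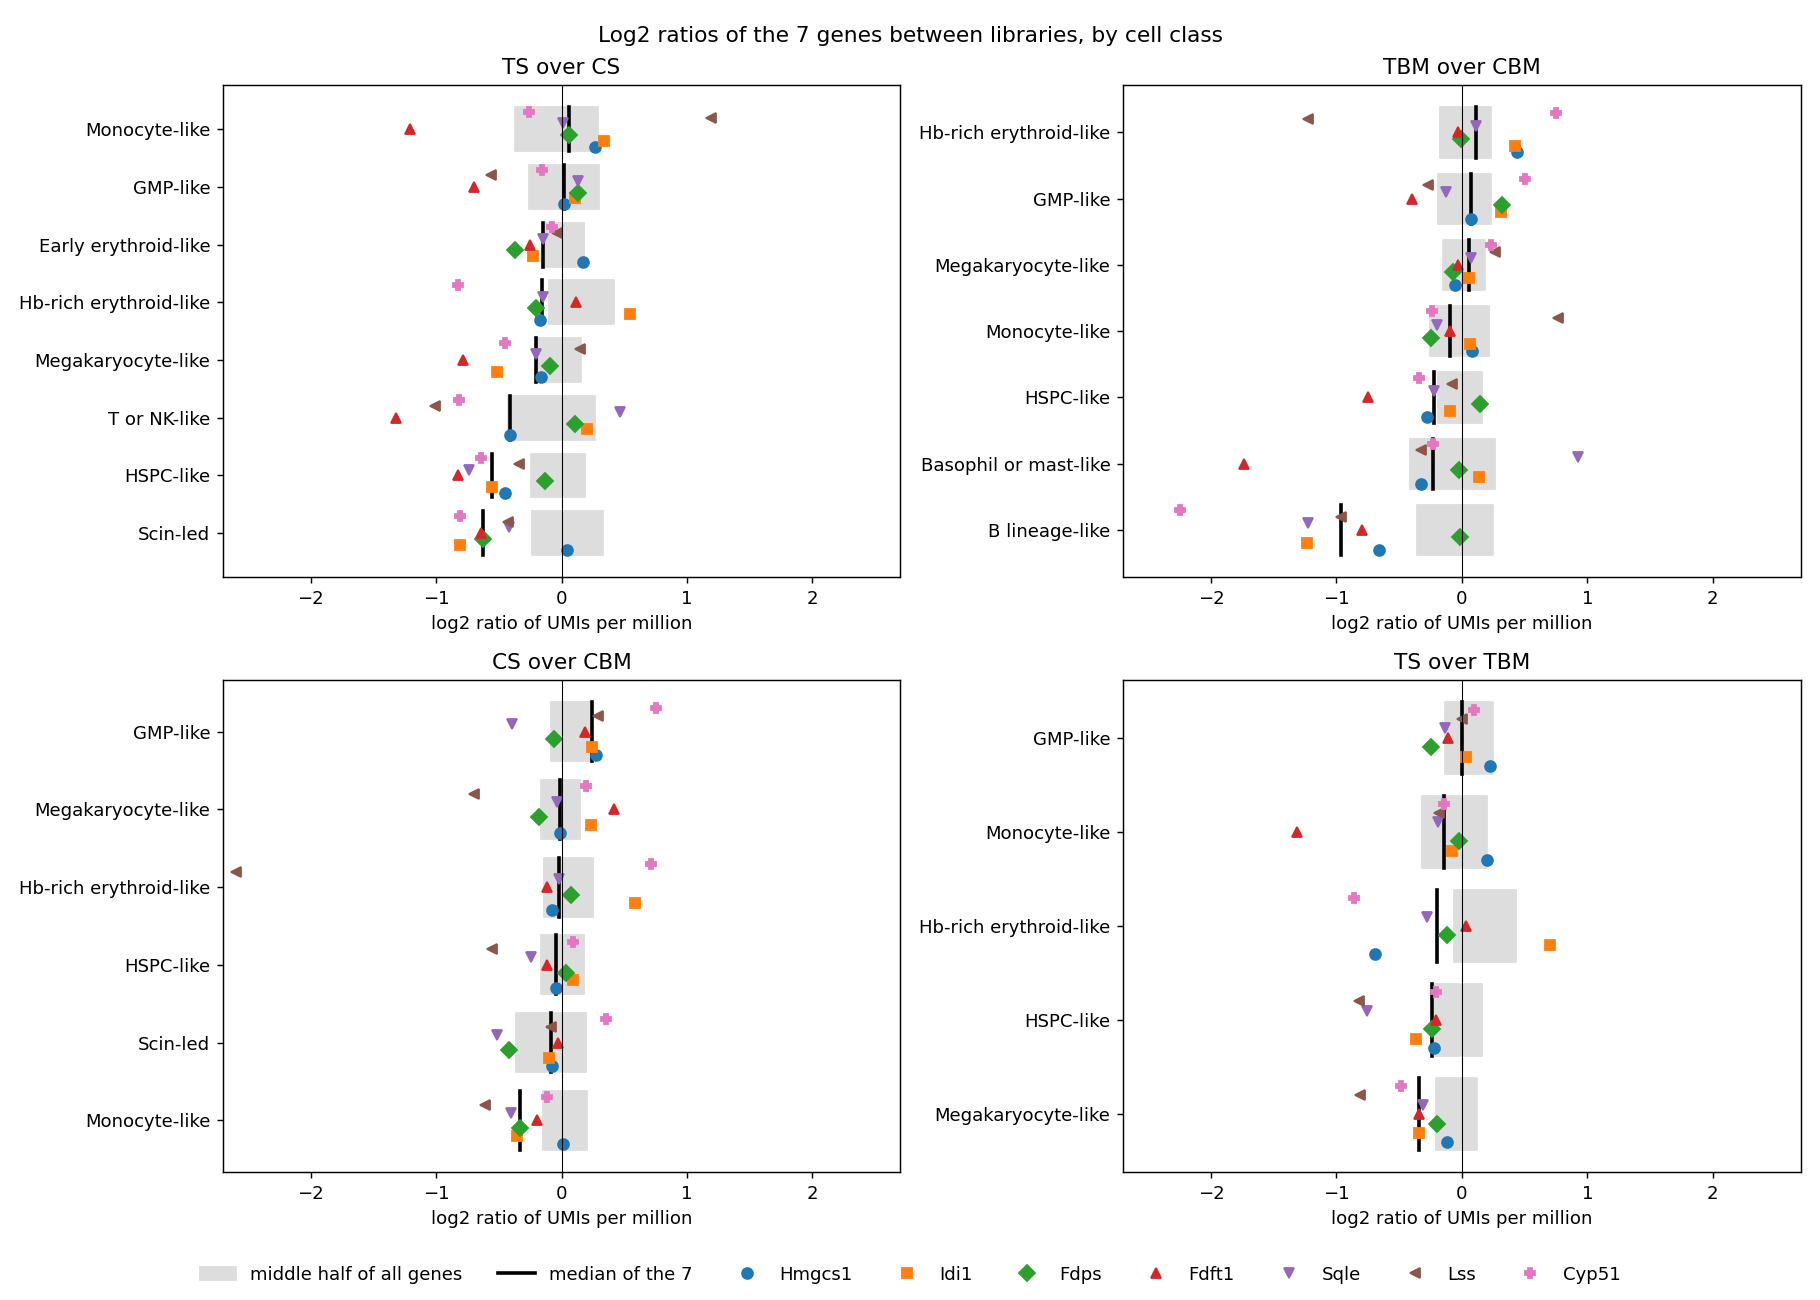
Log2 ratios of CPM (horizontal axes) for the 4 pairs of libraries (panels) in each cell class with at least 50 cells in both (vertical axes); symbols are the 7 genes, black lines their median, and grey boxes the range between the quartiles of all genes with at least 50 UMIs. In TS over CS the medians of HSPC-like (-0.55) and Scin-led (-0.63) cells lie farthest left of their grey boxes; Lss is not drawn where a library had 0 UMIs of it.

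The other genes of the pathway, taken from a fixed list of 48, placed these differences among the steps before and after. Of the 15 further mevalonate and sterol steps, 13 had enough UMIs in HSPC-like cells of CS and TS. Of these, 11 were below 0, 3 had intervals below 0 and 1 above, and 1 was at least 2-fold lower and 0 higher. Over all genes counted in TS over CS, 53.1% were below 0, 1.48% at least 2-fold lower, and 1% at least 2-fold higher. These shares stand beside the counts of each list below. The share of all genes with an interval that excludes 0 was not taken. Counts of such intervals, here and above, therefore have no background beside them. Msmo1, a sterol methyl oxidase that acts after Cyp51, was at 25.4 CPM in CBM and 18.7 in TBM, and 26.0 in CS and 12.6 in TS, a log2 ratio of TS over CS of -1.05 (-1.46 to -0.63). Ebp, a sterol isomerase, was the gene with its interval above 0, at 39.8, 45.8, 48.4, and 61.1 CPM in the same order.

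Of the 7 regulators, 5 were below 0 in TS over CS and 1 was at least 2-fold lower. Insig1, an SREBP2 target that restrains SREBP2, was at 32.0 CPM in CBM and 22.7 in TBM, and 28.4 in CS and 13.8 in TS, a ratio of -1.04 (-1.43 to -0.64). Srebf2 itself was at 91.7, 91.3, 80.3, and 67.5 CPM, with a smaller difference between the spleens.

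Of the uptake and transport genes, 10 had enough UMIs in HSPC-like cells of CS and TS; 7 were below 0, 2 had intervals below 0 and 1 above, and 1 was at least 2-fold lower and 1 higher. Vldlr, the receptor for very low density lipoprotein, was at 47.3 CPM in CBM and 139 in TBM, and 21.5 in CS and 73.4 in TS, with a log2 ratio of 1.77 (1.42 to 2.14) between the spleens, TS over CS. Between the marrows, TBM over CBM, the ratio was 1.56 (1.42 to 1.69), and control spleen over control marrow gave -1.14 (-1.51 to -0.78). Both tumor libraries thus had more Vldlr than the control of the same organ. Stard4 was at 39.7, 32.7, 37.6, and 23.3 CPM in the same order, the lowest again in TS.

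Of 5 efflux and storage genes with enough UMIs, 4 were below 0 in TS over CS and 4 in TBM over CBM, against 53.1% and 51.3% of all genes counted. In each comparison 2 were at least 2-fold lower, against 1.48% and 1.38% of all genes counted. Apoe, a lipoprotein component, was at 342 CPM in CBM and 171 in TBM, and 517 in CS and 191 in TS, so that TBM over CBM was at -1.002 (-1.07 to -0.93) on the log2 scale and the ratio of the spleens, TS over CS, at -1.43 (-1.53 to -1.34). Free RNA carried Apoe in the same order of libraries in each organ, at 395, 220, 718, and 236 CPM, and its part in the difference was not tested. Abca1, a cholesterol exporter, was at 13.3, 5.82, 14.3, and 7.03 CPM, with ratios of -1.19 (-1.58 to -0.81) and -1.03 (-1.58 to -0.46). Soat1, which esterifies cholesterol for storage, was higher in TS than in CS, with the interval of its ratio above 0 and below 2-fold.

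Fatty acid synthesis, which is driven by related factors, showed no common direction. Of 8 genes with enough UMIs in HSPC-like cells, 3 were below 0 in TS over CS, 1 had an interval below 0, and the median was 0.03. That gene was Scd2, a fatty acid desaturase, at 174 CPM in CBM and 109 in TBM, and 167 in CS and 86.9 in TS. By list, the median ratio of TS over CS was -0.55 for the members, -0.41 for the other mevalonate and sterol steps, -0.15 for the regulators, -0.09 for uptake and transport, and -0.80 for efflux and storage, the last over 5 genes.

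**Figure D5:**
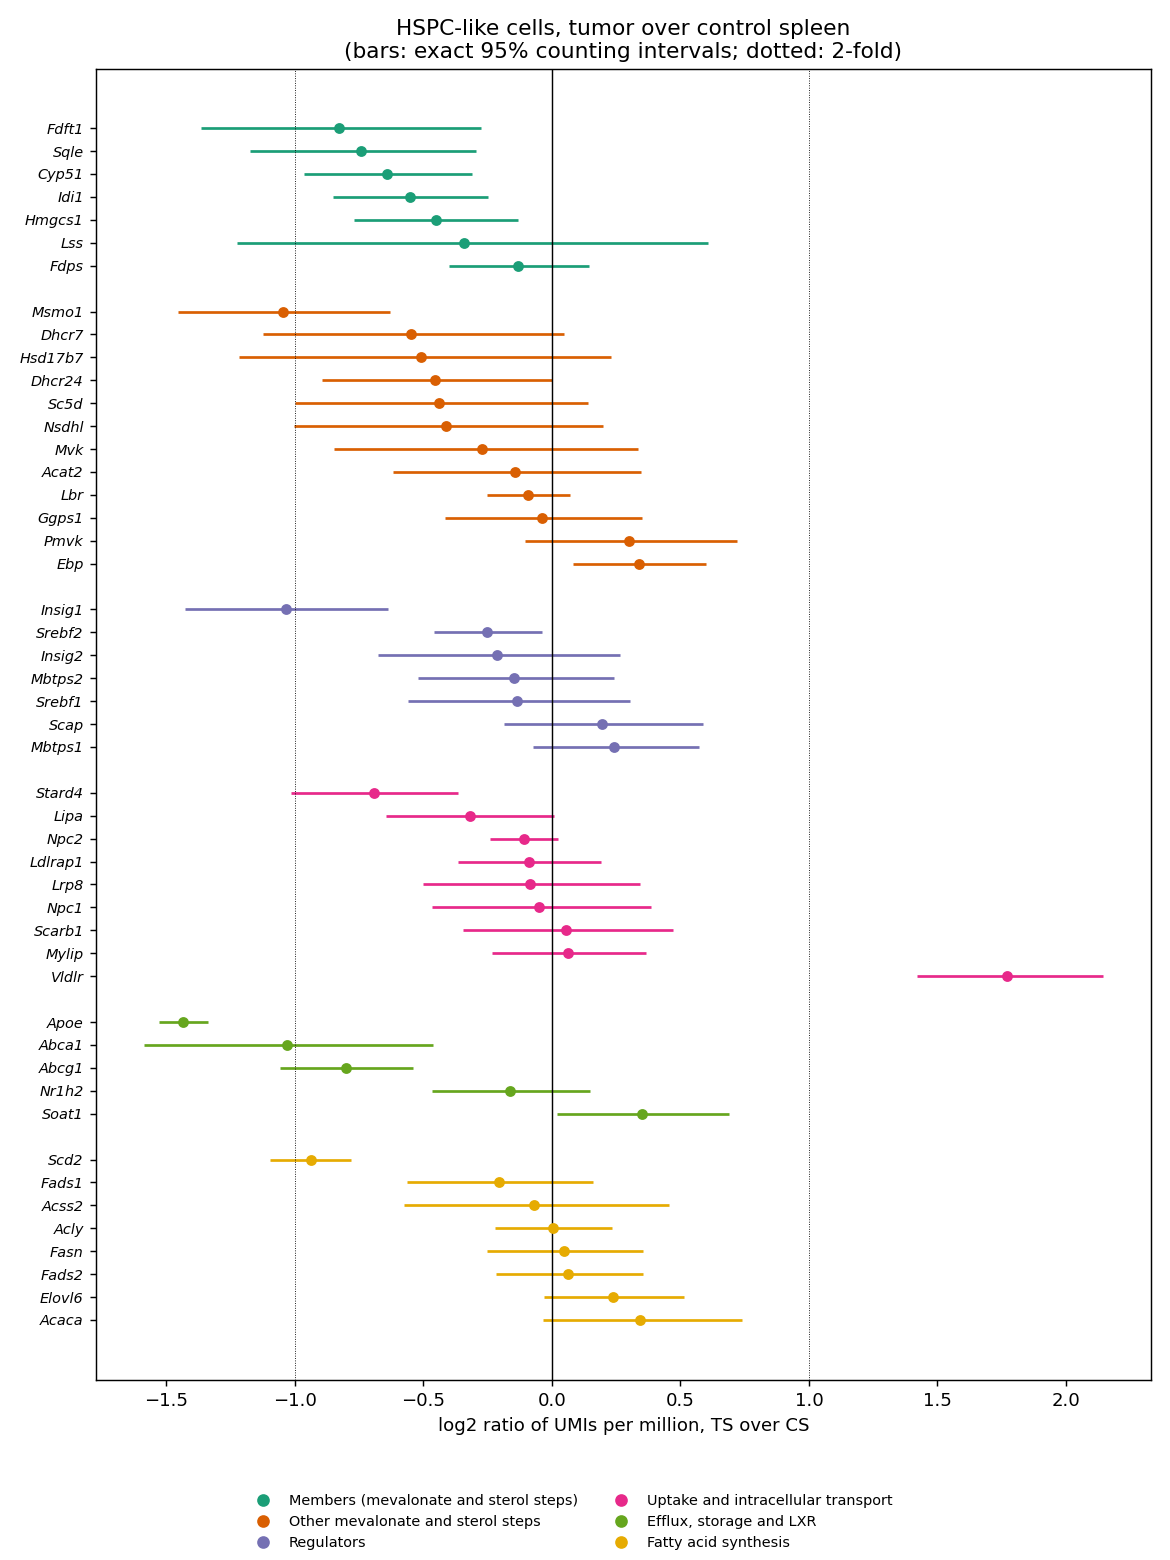
Log2 ratio of TS over CS in HSPC-like cells (horizontal axis) for the members and other reported genes of the pathway list with at least 50 UMIs over both libraries (vertical axis, colored by list), with exact 95% counting intervals as bars and dotted lines at 2-fold. The points of all 7 members lie left of 0 inside the 2-fold lines, Vldlr (1.77) lies outside on the right, and the fatty acid genes other than Scd2 lie near 0.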

How the data were processed

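The 4 libraries were aligned, demultiplexed, and counted by the authors with Cell Ranger 4.0 and mm10 (submitters' processing notes), and the deposited values are whole-number UMI counts per gene for all barcodes, without normalization or ambient removal; the later steps of the methods were not in these counts. Barcodes with at least 1000 genes and at most 10% mitochondrial UMIs were kept (58.1 to 79.4% of UMIs per library). 50 principal components of 3000 variable genes, without the pathway genes, and 20 neighbors gave 42 Leiden clusters at a resolution of 1.2 (leidenalg 0.10.2, scikit-learn 1.9.0, scipy 1.17.1); 31 were named from marker lists, 3 had Scin among their first 3 leading genes, and 8, with 1552 cells, stayed unnamed. Names were rebuilt, and doublets were not removed. CPM had exact Poisson and ratios exact conditional binomial intervals. They were checked only on counts simulated from the Poisson model that they assume, without spread between cells or mice. Named genes were the 7 members, genes of the pathway list past 2-fold or at 50 CPM, of which only some bearing on HSPC-like cells are reported here, and the 10 most alike in log2(CPM + 10); Stard4, Ebp, Soat1, Srebf2, Scd1, Scd2, Pmvk, and Lbr were named after their values were seen. The members and lists were chosen with earlier results of these data known. 12 alternatives were planned and others were added after seeing the data.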

Additional observations from a re-analysis of the deposited data

How the results depend on the processing

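In HSPC-like cells the median log2 ratio of the 7 genes for TS over CS stayed below 0 under all 12 alternative settings chosen at the start, at -0.98 to -0.50, TBM over CBM stayed at -0.26 to -0.16, TS over TBM at -0.37 to -0.20, and CS over CBM ran from -0.12 to 0.26. The largest shifts came with cells of low cell cycle share, which gave -0.98 (the value of Lss) for TS over CS and 0.26 for CS over CBM. Added after seeing the data, cluster 6 alone gave -0.15 for TS over CS and -0.37 for CS over CBM, and cluster 12 alone gave -0.17 for TS over CS and 0.23 for TBM over CBM, with 45 and 25 CS cells; the cause was not tested. Without cluster 23, which came mostly from TS, TS over CS was -0.51. In other classes, TS over CS ranged from -0.72 to -0.44 in Scin-led cells, over the 11 of the 12 planned settings run there. Over all 12 it ranged from -0.76 to -0.03 in megakaryocyte-like cells and from -1.27 to -0.20 in T or NK-like cells. In T or NK-like cells the median of the 5 members with enough UMIs was 0.11. In early erythroid-like cells the median was 0.35 in cluster 4 alone, with 18 CS cells. It was 0.01 in cluster 17 alone, where the summed ratio was -0.12 (-0.22 to -0.02). Idi1 in B lineage-like cells, TBM over CBM, reversed to 0.52 in cells of low cell cycle share. No paired analysis was possible because each group had 1 library. Depth limits Lss most, with 16 to 96 UMIs per library in HSPC-like cells.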
